A study of Mus musculus with 18 samples.

Results

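The 31 genes described here are a list of macrophage and pan-myeloid genes given by name, and all 31 were matched by symbol to rows of the deposited table of 54752 mouse genes, of which 34563 had a count in any library. The study asked what depletion of Cd276, the gene of the immune checkpoint ligand B7-H3, does to 2 mouse ovarian cancer lines and to grafts of 1 of them. RNA was sequenced from cultures of 2 lines, HM-1 (labelled with the hybrid mouse strain B6C3F1) and ID8 (labelled C57BL6), each with a control group and a group labelled Cd276KO. Tumors were sequenced from B6C3F1 mice given 1000000 control or Cd276KO HM-1 cells into the skin and taken at day 10. The 6 groups held 3 libraries each, called biological replicates in the labels, 18 in all. The labels do not say whether the replicates were separate mice, cultures or clones, so a p-value here speaks only for the spread among these libraries, and that spread may be technical. Only the tumor cells carry the Cd276KO label. The mice that received them are given no genotype.

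Macrophages are phagocytes that develop from blood monocytes or from precursors that settle in tissues, and they live on the growth factors CSF1 and IL-34, both of which bind the receptor encoded by Csf1r. In tumors they clear dying cells and bind antibody-coated targets through Fc receptors, and they release complement, lysosomal enzymes and lipoproteins. The transcription factor PU.1, encoded by Spi1, is needed for the myeloid lineage and acts on many of the genes named here. Several members (Itgam, Itgb2, Fcer1g, Tyrobp, Lcp1, Ptprc, Cybb, Lyz2 and Spi1) are also made by neutrophils, monocytes or dendritic cells.

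Libraries held between 17349082 and 30959773 counts. Levels are given as counts per 1000000 counts of a library (CPM), and groups were compared with edgeR's quasi-likelihood test, in which a gene was called at a Benjamini-Hochberg adjusted p under 0.05 over all genes tested. The targeted gene, Cd276, stood at 74.2, 93.5 and 91.5 CPM in HM-1 control cultures and 47.2, 47.7 and 44.8 CPM in cultures labelled Cd276KO (adjusted p = 0.00146). In tumors Cd276 stood at 142, 107 and 116 CPM against 73.2, 97.2 and 89.5 CPM (adjusted p = 0.105). In ID8 cultures the values overlapped, at 20.6 to 21.1 CPM in controls and 18.3 to 21.01 CPM under the Cd276KO label (adjusted p = 0.692). Counts over a whole gene do not show an edit that leaves its RNA in place, and the Cd276KO label is used as given. Of the tumors, control 3 stood apart: its counts gave a chi-square, averaged over genes, of 149 and 90.5 against controls 1 and 2, and those gave 45.4 against each other. Among the cultures, HM-1 control 1 stood apart (71.3 and 69.9 against the others, which differed by 1.62). The simple-epithelium keratin list summed to 3427 to 6314 CPM in the 12 HM-1 libraries, while the epithelial adhesion gene Epcam was at 0 in all 6 HM-1 cultures.

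In the HM-1 tumors, edgeR called 7 of the 31 macrophage genes lower under the Cd276KO label and none higher. At an unadjusted edgeR p under 0.05, 15 members passed, none of them higher. The share of all genes at that threshold was not computed, so this count has no background to be set against and is not read as a result. The 7 were the integrin gene Itgam, the Fc receptor signalling chain genes Fcer1g and Tyrobp, the myeloid actin-bundling gene Lcp1, the matrix gene Emilin2, the endosomal glycoprotein gene Cd68 and the transcription factor gene Spi1. Over all 15345 genes tested, 3.18% were called lower and 2.2% higher. Of the members, 13 had all 3 Cd276KO values below all 3 control values and none had them above, beside 20.6% and 14.2% of all genes tested. The log2 difference was below 0 for 27 of 31 members, with a median of -0.61 beside -0.03 over all genes tested. These tumor libraries are bulk RNA, in which fewer cells of a type and less RNA per cell cannot be told apart.

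The calls rest on few libraries. Without control tumor 3 the count was 9 (the same 7 with Fcgr3 and Lyz2), beside 5.87% of all genes called lower in that fit. Without control tumor 2 it was 3 (Itgam, Lcp1 and Fcer1g), beside 0.936%, and without control tumor 1 it was 1 (Lcp1), beside 1.54%. Without any 1 of the 3 Cd276KO tumors no member was called, and at most 1 gene of all those tested was, which bears on every call between tumors named here. DESeq2, the tool the study's design text names, called 11 members lower, the same 7 with Aif1, Fcgr3, Lyz2 and Sirpa, beside 7.75% of the 17177 genes it tested.

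**Figure D1:**
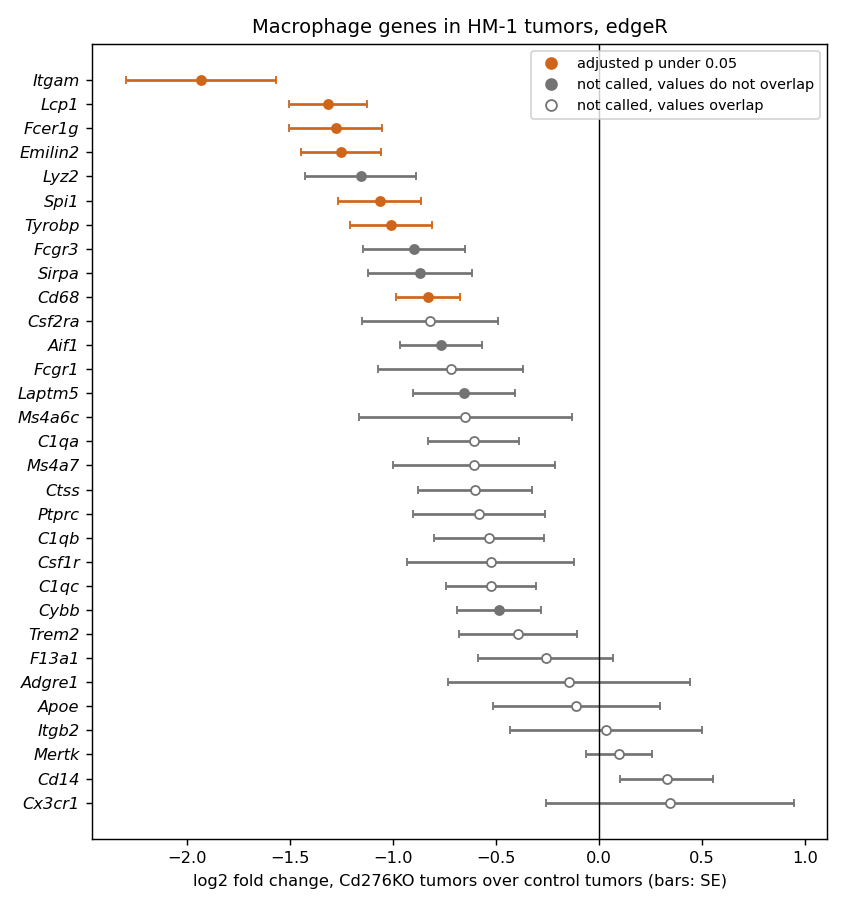
Log2 fold change of each of the 31 genes in Cd276KO tumors over control tumors (horizontal axis), with bars of 1 standard error from edgeR, 3 libraries a group. The 7 called genes lie between -1.93 (Itgam) and -0.83 (Cd68), and filled grey points mark 6 more genes whose 2 groups of values do not overlap.

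Among the surface molecules that identify myeloid cells, the integrin gene Itgam (ENSMUSG00000030786, chromosome 7, 128062640 to 128118491, GRCm38, plus strand) encodes CD11b, the alpha chain of complement receptor 3. Itgam stood at 32.0, 21.7 and 48.3 CPM in control tumors and 5.79, 10.4 and 10.3 CPM in Cd276KO tumors. Every Cd276KO value was below every control value, and control tumor 3 was the highest of the 6. Itgam fell by 1.93 on the log2 scale (SE 0.37, adjusted p = 0.0385), and by 1.53 without control tumor 3 (adjusted p = 0.0212). Of its exon bases, 68.7% are shared with the same-strand gene model Gm49368, which took 65 counts over the control tumors and 8 over the Cd276KO tumors. Reads in the shared bases may have been given to either gene or left out, which the sources used here do not say. The level of Itgam may thus be understated.

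Itgb2 encodes CD18, the chain that pairs with CD11b at the cell surface. Its values were 246, 188 and 53.4 CPM in control tumors and 147, 181 and 150.4 CPM in Cd276KO tumors, which overlap, with control tumor 3 far below the others. The log2 difference for Itgb2 was 0.04 (SE 0.47, adjusted p = 0.97), and it was -0.36 without control tumor 3 and -0.024 when libraries were scaled by total counts alone.

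Adgre1 encodes F4/80, a classic marker of mature mouse macrophages. It stood at 29.1, 18.5 and 4.69 CPM in control tumors and 9.13, 19.5 and 17.0 CPM in Cd276KO tumors. All 3 Cd276KO values lay between the lowest and the highest control value (log2 difference -0.15, SE 0.59, adjusted p = 0.903), and control tumor 3 held the lowest of the 6 values. The fractalkine receptor gene Cx3cr1, high in many resident macrophages, had the same layout, with 21.2, 12.8 and 2.92 CPM against 11.3, 19.3 and 14.6 CPM (log2 difference 0.35, SE 0.60, adjusted p = 0.759, and -0.10 without control tumor 3). The pan-leukocyte phosphatase gene Ptprc, which encodes CD45, stood at 63.5, 41.0 and 32.1 CPM against 17.9, 39.1 and 31.9 CPM (log2 difference -0.58, SE 0.32, adjusted p = 0.31). None of these 3 genes was called.

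The receptors for myeloid growth factors were not called either. Csf1r, which receives CSF1 and IL-34, stood at 135, 90.8 and 46.0 CPM in control tumors and 35.8, 81.3 and 66.0 CPM in Cd276KO tumors (log2 difference -0.52, SE 0.41, adjusted p = 0.471). Csf2ra, the alpha chain of the GM-CSF receptor, stood at 30.3, 23.3 and 17.9 CPM against 7.29, 18.3 and 13.9 CPM (log2 difference -0.82, SE 0.33, adjusted p = 0.187). In both genes control tumor 1 was the highest and Cd276KO tumor 1 the lowest of the 6, and the highest Cd276KO value lay above the lowest control value. Csf1r shares 15.1% of its exon bases with Hmgxb3 on the other strand, which took 1653 counts over the control tumors and 1586 over the Cd276KO tumors. Reads in the shared bases cannot be told apart if the authors' counting did not use strand.

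Fc receptors bind the constant part of antibodies, and their activating forms signal through the chain encoded by Fcer1g (ENSMUSG00000058715, chromosome 1, 171229572 to 171234365, minus strand). Fcer1g stood at 61.9, 44.5 and 63.6 CPM in control tumors and 16.6, 28.1 and 24.1 CPM in Cd276KO tumors, with no overlap. It fell by 1.28 on the log2 scale (SE 0.23, adjusted p = 0.0345). Tyrobp encodes DAP12, a related adaptor that pairs with TREM receptors (ENSMUSG00000030579, chromosome 7, 30413760 to 30417585, plus strand). Its values were 60.5, 43.3 and 49.4 CPM against 18.1, 28.7 and 27.8 CPM, again without overlap, and it fell by 1.01 (SE 0.20, adjusted p = 0.04).

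The receptors that use these adaptors were not called. Fcgr3, a low-affinity IgG receptor, stood at 133, 102 and 74.7 CPM against 37.0, 62.6 and 62.7 CPM, which do not overlap but did not pass the test (log2 difference -0.90, SE 0.25, adjusted p = 0.0862). Fcgr1, the high-affinity IgG receptor, stood at 22.9, 12.99 and 9.64 CPM against 6.73, 12.01 and 8.07 CPM (log2 difference -0.72, SE 0.35, adjusted p = 0.26). Trem2, a lipid-sensing receptor of tumor macrophages that signals through DAP12, stood at 7.37, 4.92 and 4.22 CPM against 3.39, 4.51 and 4.32 CPM (log2 difference -0.39, SE 0.28, adjusted p = 0.442). The Fc receptor genes have similar copies in the genome, and how the authors' counting treated reads that fit more than 1 copy is not given in the sources used here.

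Among genes of uptake and sensing, Cd68 (ENSMUSG00000018774, chromosome 11, 69664213 to 69666153, minus strand) stood at 48.0, 40.1 and 39.9 CPM in control tumors and 18.2, 26.3 and 26.0 CPM in Cd276KO tumors. The groups did not overlap, and Cd68 fell by 0.83 on the log2 scale (SE 0.16, adjusted p = 0.038). Sirpa, the receptor for the CD47 signal that restrains phagocytosis, stood at 126, 87.0 and 77.6 CPM against 34.3, 64.8 and 55.9 CPM, without overlap and not called (log2 difference -0.87, SE 0.25, adjusted p = 0.093). Mertk, a receptor for the uptake of dying cells, had overlapping values of 27.5, 33.1 and 21.4 CPM against 24.9, 29.5 and 30.7 CPM (log2 difference 0.10, SE 0.16, adjusted p = 0.748). Cd14, the co-receptor for bacterial lipopolysaccharide, stood at 65.2, 62.7 and 89.0 CPM against 103, 70.7 and 92.3 CPM (log2 difference 0.33, SE 0.23, adjusted p = 0.412).

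The C1q genes, which encode the 3 chains of the first complement component and are made in tissues mainly by macrophages, ranked the 6 tumors in the same order. C1qa stood at 274, 185 and 158 CPM in control tumors and 102, 159 and 133 CPM in Cd276KO tumors (log2 difference -0.61, SE 0.22, adjusted p = 0.152). C1qb (log2 difference -0.53, SE 0.27) and C1qc (-0.52, SE 0.22) had adjusted p of 0.272 and 0.196. In each of the 3 genes control tumor 1 was the highest and Cd276KO tumor 1 the lowest, and Cd276KO tumor 2 lay above control tumor 3.

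Lyz2, the macrophage lysozyme, was the most abundant member per length. It stood at 1023, 771 and 639 CPM in control tumors and 226, 462 and 378 CPM in Cd276KO tumors, with no overlap (log2 difference -1.16, SE 0.27). Its adjusted p of 0.0581 in edgeR missed the threshold, and it was called by DESeq2 and without control tumor 3 (adjusted p = 0.0399). The related gene Lyz1, which is a near copy, held 125 counts over the control tumors and 196 over the Cd276KO tumors.

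The other lysosome and oxidase genes had smaller differences. Ctss, a cathepsin that trims antigens for MHC class II, stood at 273, 197 and 139 CPM against 89.4, 166 and 135 CPM (log2 difference -0.60, SE 0.28, adjusted p = 0.234). Laptm5, a lysosomal membrane gene of blood cells, ranged from 79.0 to 130.5 CPM in control tumors and from 41.9 to 75.6 CPM in Cd276KO tumors (log2 difference -0.65, SE 0.25, adjusted p = 0.164). Cybb, the catalytic chain of the phagocyte oxidase, ranged from 25.4 to 34.4 CPM and from 14.5 to 24.9 CPM (log2 difference -0.48, SE 0.20, adjusted p = 0.203). Laptm5 and Cybb had no overlap between the groups by small gaps, and none of the 3 was called.

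Of the secreted proteins, Emilin2, an elastin-associated matrix glycoprotein (ENSMUSG00000024053, chromosome 17, 71252172 to 71311978, minus strand), stood at 65.2, 56.4 and 61.6 CPM in control tumors and 17.7, 31.2 and 26.3 CPM in Cd276KO tumors. The control values lay close together and well above the other group, and Emilin2 fell by 1.25 on the log2 scale (SE 0.19, adjusted p = 0.0273). Apoe, the lipoprotein of lipid export, stood at 506, 446 and 153 CPM against 246, 417 and 327 CPM, with control tumor 3 the lowest of all (log2 difference -0.11, SE 0.41, adjusted p = 0.895). F13a1, a transglutaminase subunit of tissue macrophages, stood at 55.7, 56.9 and 49.996 CPM against 21.6, 61.9 and 50.1 CPM, where Cd276KO tumor 1 alone was low (log2 difference -0.26, SE 0.33, adjusted p = 0.668).

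Among the intracellular members, Lcp1, which encodes the actin bundler L-plastin (ENSMUSG00000021998, chromosome 14, 75131101 to 75230842, plus strand), stood at 216, 150.1 and 169.7 CPM in control tumors and 53.0, 81.1 and 76.1 CPM in Cd276KO tumors. It fell by 1.31 on the log2 scale (SE 0.19, adjusted p = 0.0257). Spi1 (ENSMUSG00000002111, chromosome 2, 91082390 to 91115756, plus strand) stood at 32.8, 23.6 and 24.8 CPM against 9.63, 15.2 and 13.03 CPM and fell by 1.06 (SE 0.20, adjusted p = 0.0386). In both genes the highest Cd276KO value lay well below the lowest control value. Aif1, the calcium-binding protein IBA1, stood at 19.7, 13.2 and 14.3 CPM against 9.29, 8.60 and 9.05 CPM, without overlap and not called (log2 difference -0.77, SE 0.20, adjusted p = 0.0737).

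The membrane genes Ms4a7 and Ms4a6c were the least certain of the list. Ms4a7 ranged from 7.09 to 21.4 CPM in control tumors and from 6.18 to 10.1 CPM in Cd276KO tumors (log2 difference -0.61, SE 0.39, adjusted p = 0.387). Ms4a6c ranged from 3.49 to 15.3 CPM and from 3.62 to 7.37 CPM (log2 difference -0.65, SE 0.52, adjusted p = 0.483). Ms4a6c shares 53.1% of its exon bases with the gene model BE692007 on the other strand, and reads of the 2 cannot be told apart if the authors' counting did not use strand.

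PU.1 binds purine-rich boxes that often hold the letters GAGGAA, so the promoters of the members were searched for them on both strands over the 250 bases before each RefSeq start (GRCm38.p6). Of the 31 members 23 had an entry, with 31 windows in all, and 16 of these windows (51.6%) in 14 members held the letters, beside 7639 of all 32851 windows (23.3%). The longer form GAGGAAGT, which contains the shorter one, was in 1 member window (3.23%) and in 2.44% of all windows. Below are 4 promoters: Itgam and Cd68, called lower with the letters present, Fcer1g, called lower without them, and C1qb, not called with them present. Each runs 5′ to 3′ along the gene's strand, and capitals mark GAGGAA or, where it lies on the opposite strand, its reverse complement TTCCTC. They are Itgam at chr7:128062390-128062639 (plus strand, matches starting 84 and 15 bases before the start), Cd68 at chr11:69666171-69666420 (minus strand, 225 bases before), C1qb at chr4:136886201-136886450 (minus strand, 30 bases before) and Fcer1g at chr1:171234350-171234599 (minus strand).
Itgam: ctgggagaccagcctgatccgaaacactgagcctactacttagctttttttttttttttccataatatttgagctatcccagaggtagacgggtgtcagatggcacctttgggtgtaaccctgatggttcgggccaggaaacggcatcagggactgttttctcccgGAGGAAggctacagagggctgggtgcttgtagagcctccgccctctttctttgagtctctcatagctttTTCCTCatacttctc
Cd68: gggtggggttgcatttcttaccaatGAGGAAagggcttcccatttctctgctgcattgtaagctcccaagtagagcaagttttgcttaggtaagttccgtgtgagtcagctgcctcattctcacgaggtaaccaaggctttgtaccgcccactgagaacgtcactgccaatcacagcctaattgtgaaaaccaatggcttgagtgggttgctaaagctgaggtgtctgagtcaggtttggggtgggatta
C1qb: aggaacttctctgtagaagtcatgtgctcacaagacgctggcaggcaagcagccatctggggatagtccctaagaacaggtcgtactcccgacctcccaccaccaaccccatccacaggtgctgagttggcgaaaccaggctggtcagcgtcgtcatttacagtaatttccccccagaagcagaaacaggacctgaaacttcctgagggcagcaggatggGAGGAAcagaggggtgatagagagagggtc
Fcer1g: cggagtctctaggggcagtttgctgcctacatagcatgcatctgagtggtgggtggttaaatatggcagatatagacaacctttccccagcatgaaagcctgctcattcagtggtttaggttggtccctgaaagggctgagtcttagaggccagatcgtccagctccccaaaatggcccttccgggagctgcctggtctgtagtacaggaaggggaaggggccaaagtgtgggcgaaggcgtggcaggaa
Of the 4 printed promoters, the letters thus stand in those of called and uncalled genes alike. Of the 5 called genes with an entry, Itgam and Cd68 held the letters, and Fcer1g, Emilin2 and Lcp1 did not. A match is a description of the letters and not a binding site, and a window without them says nothing of the factor.

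The members varied together from tumor to tumor within each group. Their summed level was 4148, 3131 and 2368 CPM in control tumors and 1478, 2455 and 2082 CPM in Cd276KO tumors, so Cd276KO tumor 2 lay above control tumor 3. Control tumor 1 was the highest of the 6 for 26 of 31 members, beside 22.9% of all genes tested, and Cd276KO tumor 1 was the lowest for 23, beside 22.4%. Within the Cd276KO group, tumor 1 was the lowest for 29 members (52.3% of all genes) and tumor 2 the highest for 25 (42.8%). Within the control group, tumor 1 was the highest for 26 (34.1%) and tumor 3 the lowest for 23 (46.4%). The 3 members highest in control tumor 3 within its group were Itgam, Fcer1g and Cd14.

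**Figure D2:**
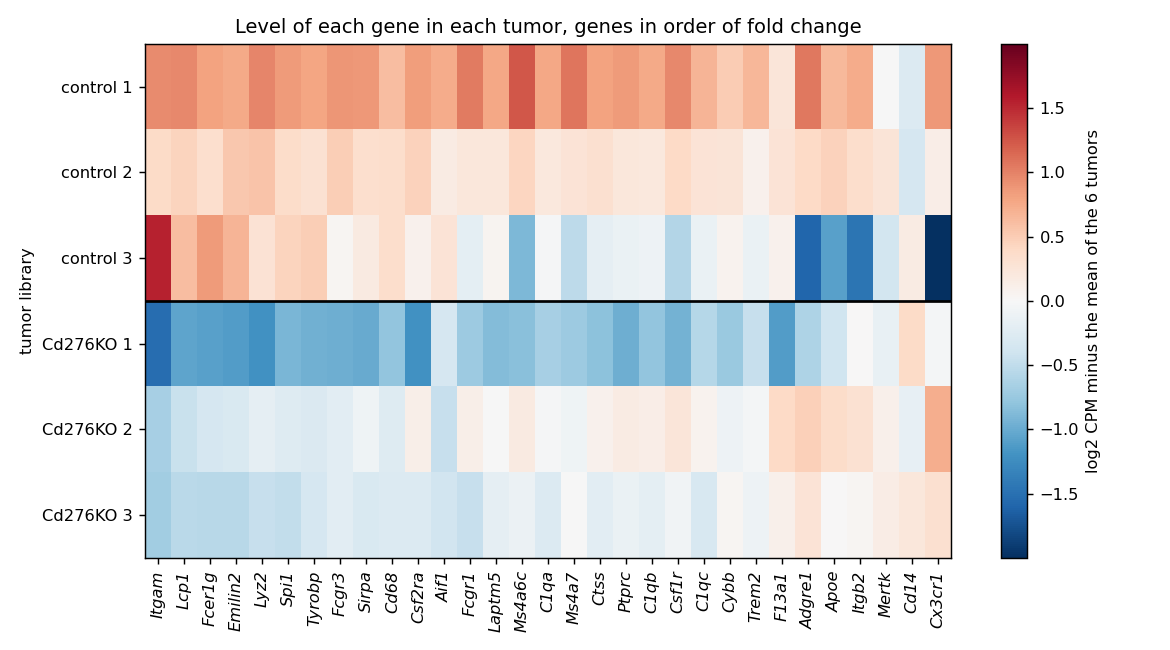
Log2 CPM of each member in each of the 6 HM-1 tumors, less its mean over the 6 (colour), with genes in the order of their log2 fold change from Itgam on the left to Cx3cr1 on the right. Control tumor 1 is the highest for 26 of 31 genes and Cd276KO tumor 1 the lowest for 23, while control tumor 3 turns from high for Itgam to low for Adgre1 and Cx3cr1.

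Per length of exon sequence, the members spanned a wide range of levels in the tumors. Over the 6 tumors the median level was 418 CPM per kilobase for Lyz2, 174 for Apoe, 152 for C1qa, 112 for Ctss and 110 for C1qb. The ranges of these 5 over the 6 tumors overlapped with those of their neighbours in the order: Lyz2, the highest, ranged from 172 to 777 CPM per kilobase, and Apoe from 71.8 to 237. C1qc, Itgb2 and Tyrobp followed at 54.8, 54.4 and 54.0 CPM per kilobase, which differ by far less than their spread. The lowest members were Ptprc, at a median of 1.94, and Trem2, at 0.893 CPM per kilobase.

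To see how the members stood to each other, each was divided by the summed level of the 3 C1q genes in the same tumor, a comparison chosen after the values were seen and given as a description. Of the other 28 members, 10 had all 3 Cd276KO ratios below all control ratios (Itgam, Lcp1, Fcer1g, Emilin2, Lyz2, Spi1, Tyrobp, Fcgr3, Sirpa and Csf2ra), beside 3.85% of all genes tested. In the other direction 4 members (Itgb2, Cx3cr1, Mertk and Apoe) had all 3 ratios above, beside 33.3% of all genes tested. The ratios of 14 members overlapped between the groups.

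The Lyz2 ratio was 1.58, 1.70 and 1.74 in control tumors and 0.931, 1.15 and 1.17 in Cd276KO tumors. For Spi1 it was 0.0508, 0.0522 and 0.0676 against 0.0397, 0.0380 and 0.0404, and for Cx3cr1 0.0328, 0.0283 and 0.00796 against 0.0465, 0.0481 and 0.0452. Relative to C1q the list thus held separately lower and overlapping genes. The 4 of 28 separately higher ones were a smaller share than the 33.3% of all genes tested. Of these, Mertk (0.0732 in control tumor 2, 0.0737 in Cd276KO tumor 2) and Apoe (0.986 and 1.015 at the closest) were apart by little. The C1q sum itself was 646, 452 and 367 CPM in control tumors and 243, 401 and 322 CPM in Cd276KO tumors, and a lower sum raises every ratio. Csf1r shows an overlapping case, at 0.208, 0.201 and 0.125 against 0.148, 0.203 and 0.205.

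**Figure D3:**
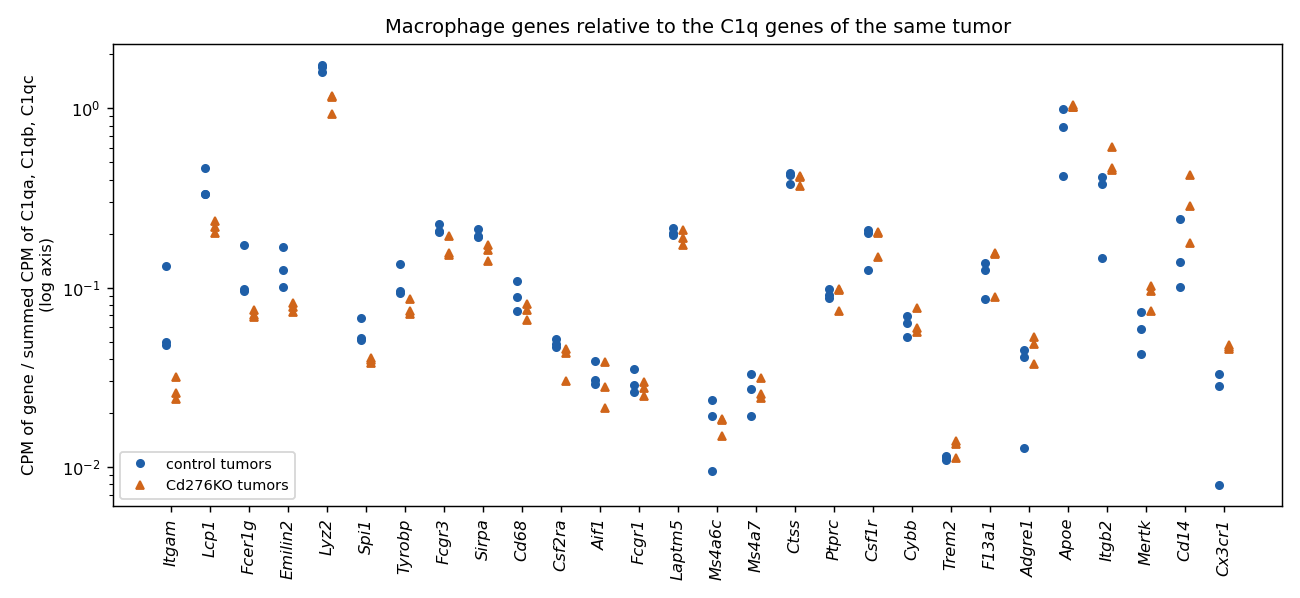
Level of each of 28 members divided by the summed level of C1qa, C1qb and C1qc in the same tumor (log axis), 1 point per library, genes in order of log2 fold change. The 10 genes with separate lower Cd276KO ratios lie mostly on the left, and Apoe, Itgb2, Mertk and Cx3cr1 on the right have separate higher ones.

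Other genes of macrophage growth and identity were described from a list of 11. Of the 11, 3 fell and none rose in tumors, beside 3.18% and 2.2% of all genes tested. The same shares stand beside the counts of the tumor lists that follow. Csf1, the main macrophage growth factor, stood at 71.4, 51.4 and 59.6 CPM in control tumors and 17.8, 31.1 and 29.2 CPM in Cd276KO tumors and fell by 1.19 (SE 0.22, adjusted p = 0.0362). Il34, the second ligand of the receptor, stood at 56.7, 58.4 and 145 CPM against 19.8, 23.1 and 19.1 CPM and fell by 2.06 (SE 0.42, adjusted p = 0.0432). The transcription factor gene Klf4 fell by 0.84 (SE 0.13, adjusted p = 0.0269). Csf2, which encodes GM-CSF, had separate values but was not called (log2 difference -2.07, SE 0.47, adjusted p = 0.0553). The monocyte factor gene Irf8 had a log2 difference of -0.26 and overlapped.

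Both ligand genes of Csf1r were made by the cultured cells too. In HM-1 cultures Csf1 fell by 0.98 on the log2 scale (SE 0.11, adjusted p = 0.00114) and Il34 fell by 1.85 (SE 0.10, adjusted p = 6.01e-05). In ID8 cultures Csf1 fell by 1.31 (SE 0.06, adjusted p = 3.39e-15) and Il34 fell by 1.20 (SE 0.10, adjusted p = 4.76e-10). The ligands were called lower in all 3 comparisons of the label, while their receptor in the tumors was not called. Of all genes tested, 3.18% were called lower in tumors, 16.1% in HM-1 cultures and 31.3% in ID8 cultures, so a lower call in the cultures is common.

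Chemokines and receptors of monocyte entry form a second list of 11, of which 4 fell and none rose, with a median of -1.71. The monocyte chemokine Ccl2 stood at 33.8, 24.1 and 140.1 CPM against 4.40, 6.90 and 5.99 CPM and fell by 3.52 (SE 0.74, adjusted p = 0.0476). HM-1 cultures made Ccl2 too, at 18.5, 13.2 and 15.6 CPM in controls and 0.0955, 0.205 and 0 CPM under the Cd276KO label. Ccl7 fell by 1.92 (SE 0.39, adjusted p = 0.0441) and Ccl12 fell by 2.17 (SE 0.27, adjusted p = 0.0217). The chemokine receptor gene Ccr1, carried by monocytes and neutrophils, stood at 47.2, 33.2 and 41.7 CPM against 13.6, 20.6 and 19.9 CPM and fell by 1.14 (SE 0.20, adjusted p = 0.0335). Ccr2, the receptor for CCL2 on monocytes, stood at 41.0, 8.07 and 5.32 CPM against 6.79, 37.0 and 25.0 CPM, with wide overlap (log2 difference 0.38, SE 0.86, adjusted p = 0.815).

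Genes linked to alternative activation also included 4 of 11 that fell and none that rose (median -0.81). Arg1, the arginine-degrading enzyme, stood at 91.7, 118 and 203 CPM against 24.6, 11.8 and 26.0 CPM and fell by 2.70 (SE 0.44, adjusted p = 0.0294). The chemokine genes Ccl17, Ccl22 and Ccl24 fell by 1.86, 2.81 and 1.92 on the log2 scale (adjusted p = 0.0377, 0.0272 and 0.0441). Ccl17 and Ccl22 are also products of dendritic cells. The mannose receptor gene Mrc1 overlapped at 203, 142 and 136 CPM against 54.1, 141 and 107 CPM (log2 difference -0.64, SE 0.32, adjusted p = 0.271). Retnla had separate higher values, 0.243, 0.938 and 0 CPM against 2.34, 16.7 and 10.3 CPM, and was not called (adjusted p = 0.0664). Its control values alone would not have passed the filter on low counts.

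Of 10 genes of inflammatory activation 9 were tested, 2 fell and none rose (median -1.40). Il1b stood at 44.4, 36.8 and 106 CPM against 11.2, 9.83 and 15.3 CPM and fell by 2.36 (SE 0.46, adjusted p = 0.0405). Cd80, a costimulatory ligand, stood at 18.2, 13.3 and 17.9 CPM against 2.89, 3.83 and 4.44 CPM and fell by 2.11 (SE 0.24, adjusted p = 0.0206). Of 13 genes of lysosomes and lipid handling, 4 fell (Fabp5, Abca1, Ctsl and Ctsb, by 1.40, 0.88, 0.83 and 0.69) and none rose, with a median of -0.17. Il12b was the 1 gene under the filter on low counts.

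Markers of other cells were summed in the same tumors. The 11 neutrophil markers summed to 32.1, 33.9 and 120.5 CPM in control tumors and 14.0, 9.28 and 14.0 CPM in Cd276KO tumors, and of the 7 tested the receptor gene Csf3r fell by 1.88 (adjusted p = 0.0498). In control tumors the granule gene Elane was at 0, and in Cd276KO tumors Camp was. The 6 monocyte markers summed to 107 to 156 CPM against 74.4 to 86.7 CPM, with none of 5 tested called. Among them Ace and Chil3 had separate lower values, Plac8 separate higher values, and Ly6c2 overlapping ones. The same list summed to 79.3 to 109 CPM in HM-1 control cultures and 154 to 166 CPM in Cd276KO cultures, mostly from Plac8, so the cultured cells alone reached the tumor sums. For the neutrophil list the cultures summed to 4.39 to 5.67 CPM and 10.4 to 11.7 CPM, mostly from Ly6g. The 11 T and NK cell markers summed to 9.38 to 16.3 CPM against 2.28 to 6.17 CPM, and of the 5 tested Gzmb fell by 4.31 (adjusted p = 0.0257). The Cd276KO tumor values of Gzmb alone would not have passed the filter on low counts, so it entered the test through the control tumors, where it is high. Of the 11, 4 averaged at least 1 CPM in control tumors and 1 in Cd276KO tumors, so these levels are near the floor. The neutrophil and T and NK cell sums had separate values in the 2 groups, as the called members did, and their part in the members' differences was not tested.

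The sums of other lists overlapped between the groups. The 8 dendritic cell markers summed to 69.3 ± 25.5 CPM against 52.7 ± 14.8 CPM (SD, n = 3 each), and the 5 mast cell markers to 24.0 to 206 CPM against 70.6 to 182 CPM, with none called. The 5 B cell markers summed to 0.938 to 1.29 CPM against 0.556 to 0.979 CPM. Fibroblast markers summed to 17927, 6022 and 530.1 CPM in control tumors, with control tumor 3 far below every other tumor, and to 3698 to 6489 CPM in Cd276KO tumors. Keratinocyte markers were at 203 CPM in control tumor 3 and 6.94 to 7.49 CPM in the other 5. Striated muscle markers summed to 127, 1.88 and 2.35 CPM against 93.0, 715 and 684 CPM, and endothelial markers to 84.4 to 328 CPM against 162 to 258 CPM. No gene of the fibroblast, endothelial, muscle or keratinocyte lists was called, and their part in the members' values was not tested.

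**Figure D4:**
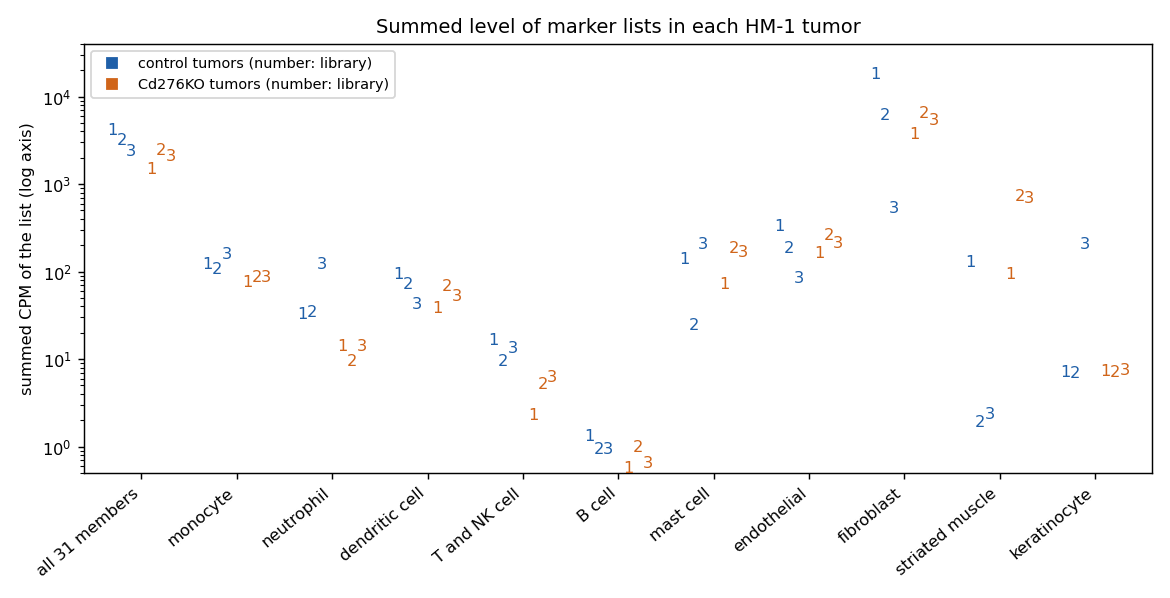
Summed CPM (log axis) of the 31 members and of 10 marker lists in each tumor, where the digit is the library number. Neutrophil, monocyte and T and NK cell sums are separate between control and Cd276KO tumors, while the dendritic, mast, endothelial and fibroblast sums overlap, and control tumor 3 is the lowest for fibroblast and endothelial markers.

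The cultures of the cancer lines give the background of each gene in the tumor cells themselves. In the 6 HM-1 cultures 26 of the 31 members averaged under 1 CPM, and their highest single value was 1.30 CPM (Emilin2) against a lowest single tumor value of 2.92 CPM (Cx3cr1). The other 5 were Itgb2, Cd14, Cd68, Mertk and Apoe. In all 6 tumors the level was above all 6 HM-1 cultures for 29 members, the exceptions being Itgb2 and Cd14, beside 29.1% of the genes tested in tumors. HM-1 cells in culture thus held RNA of these 2 genes at levels within reach of the tumors.

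Control tumors were compared with control HM-1 cultures by the same test, in which 25.3% of 14609 genes were called higher and 16.6% lower (3689 and 2418 genes, or 4239 and 1712 when libraries were scaled by total counts alone). Most members entered this test only through the tumors, where they are high, so calls are given for the 7 that also passed the filter in HM-1 cultures. Of these, 5 were higher in tumors (Apoe, F13a1, Emilin2, Cd68 and Mertk), and 2 were not called, Cd14 (log2 difference 0.08, SE 0.22, adjusted p = 0.787) and Itgb2 (0.64, SE 0.47, adjusted p = 0.309). The 9 members without any culture count (Itgam, Csf2ra, Tyrobp, Trem2, the 3 C1q genes, Ms4a7 and Ms4a6c) were given a lower bound by taking 3 counts for the whole culture group, and C1qa was then at least 4683-fold higher. Lyz2, with 9 culture counts, was 6129.6-fold higher (exact 95% counting interval 3229 to 13406), Cd68 7.42-fold (6.67 to 8.27) and Mertk 5.20-fold (4.64 to 5.85). With the bounds included, the median over the 31 was 541, which is the bound of Csf2ra, so this median is itself a lower bound. These intervals cover counting error only.

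The same comparison within the Cd276KO label called 41.2% of 14330 genes higher and 34.5% lower. Of the same 7 members, the same 5 were higher in tumors, Itgb2 was lower, at 147 to 181 CPM in tumors and 255 to 256 CPM in cultures (log2 difference -0.81, SE 0.08, adjusted p = 1.5e-05), and Cd14 was not called (log2 difference 0.31, SE 0.14, adjusted p = 0.0797). Here 7 members had no culture count and 6 had 1 to 3. The leukocyte phosphatase gene Ptprc held 17 culture counts, a tumor level 107-fold higher (66.9 to 185), and Spi1 held 10 (77.1-fold, 41.7 to 161).

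**Figure D5:**
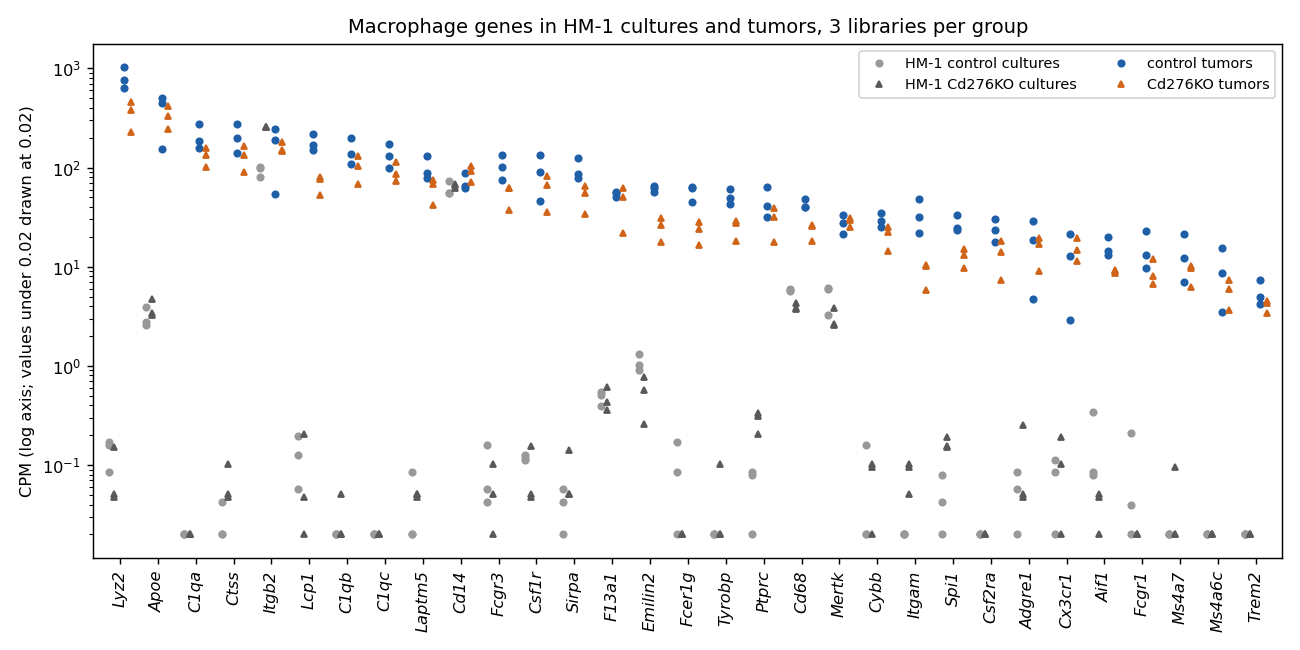
CPM of each of the 31 members in the 3 libraries of each HM-1 group (log axis, with values under 0.02 drawn at 0.02). In 29 genes all 6 tumors lie above all 6 cultures, and Itgb2 and Cd14 are the exceptions.

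Few members could be compared between the labels in culture. In HM-1 cultures 7 of 31 passed the filter on low counts, and 1 was called higher and 1 lower, beside 11.6% and 16.1% of the 12457 genes tested. Itgb2 stood at 80.7, 98.8 and 101 CPM in control cultures and 256, 256 and 255 CPM in Cd276KO cultures. The groups were far apart, and Itgb2 rose by 1.49 (SE 0.10, adjusted p = 0.000129). Cd68 stood at 5.96, 5.68 and 5.83 CPM against 3.77, 3.84 and 4.33 CPM and fell by 0.51 (SE 0.12, adjusted p = 0.0188). Not called were Mertk (log2 difference -0.74, adjusted p = 0.0839), Emilin2 (-0.94, adjusted p = 0.101), Apoe (0.35, adjusted p = 0.301), Cd14 (0.13, adjusted p = 0.511) and F13a1 (-0.03, adjusted p = 0.946).

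The call of Cd68 was lost without control culture 2 or 3 and without Cd276KO culture 1 or 2 (edgeR adjusted p = 0.0502 to 0.0842). The level of Cd68 in culture, at most 5.96 CPM, compares with 18.2 to 48.0 CPM in the tumors.

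In ID8 cultures 8 members passed the filter, and 3 were called lower and none higher, beside 31.3% and 29.4% of the 12932 genes tested, so this share is close to the background. Emilin2 stood at 1.13, 1.32 and 1.63 CPM in control cultures and 0.448, 0.249 and 0.551 CPM under the Cd276KO label and fell by 1.65 (SE 0.32, adjusted p = 0.000103). Its Cd276KO values alone would not have passed the filter on low counts, so it entered the test through the control cultures, where it is high. Itgb2 stood at 2.66, 2.65 and 2.89 CPM against 1.05, 1.03 and 1.57 CPM and fell by 1.10 (SE 0.21, adjusted p = 9.45e-05). Fcgr3 stood at 1.46, 1.32 and 1.82 CPM against 0.859, 0.961 and 0.932 CPM and fell by 0.66 (SE 0.24, adjusted p = 0.0239). All 3 were under 3 CPM in every ID8 culture. Their values in tumors come from the other line, HM-1, so they were not compared. Csf2ra was the most abundant member in ID8 cultures by CPM, at 7.11 to 9.72 CPM in controls and 8.01 to 9.49 CPM under the Cd276KO label, and was at 0 in all 6 HM-1 cultures.

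Whether the label's difference was itself different in tumors and in HM-1 cultures was tested as an interaction over the 12 HM-1 libraries, where 1.12% of 15623 genes were called lower and 1.72% higher. Of the members 1 was called, Spi1, which passed the filter only through the tumors, with a log2 interaction of -2.89 (SE 0.65, adjusted p = 0.04). Its culture side rests on 3 counts over the control cultures and 10 over the Cd276KO cultures, and the call was lost without HM-1 control culture 1 or 3, any 1 Cd276KO culture, control tumor 1 or Cd276KO tumor 3 (edgeR adjusted p = 0.0580 to 0.129). The members with more culture counts were not called: Itgb2 (-1.49, SE 0.55, adjusted p = 0.222), Mertk (0.82, SE 0.34, adjusted p = 0.292), Cd68 (-0.32), Apoe (-0.48), Emilin2 (-0.31) and Cd14 (0.21). The difference in Itgb2 in culture is thus not shown to be unlike that in tumors. This test and both comparisons of tumors with cultures use the same libraries as the comparisons of the label.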

How the data were processed

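Gene counts of 18 libraries (6 groups of 3) were used as the authors deposited them, as whole-number counts per gene with no normalization. Per the submitters' processing notes, reads were handled with Trim Galore, STAR and HTSeq on GRCm38 (mm10). The sources used here give no versions, strand setting or treatment of reads that fit several genes. From these counts CPM (per 1000000 total counts) were computed, and per-length levels used exon unions of GENCODE M21.

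Groups were compared with edgeR 4.0.16 (R 4.3.3; quasi-likelihood test, TMM scaling, default filter on low counts, Benjamini-Hochberg adjustment over all genes tested, threshold 0.05) on the 6 libraries of each comparison, and the interaction on 12. The test was tried on counts simulated with known changes in a small part of the genes, each gene drawn independently. Shifts shared by many genes were not simulated, so the shares found need not hold for the real tumors. With the tumor settings the test found 2% of 1.5-fold, 22% of 2-fold and 76% of 4-fold changes. Of its calls there, 6.93% were false, and 4.32% and 8.08% with the HM-1 and ID8 culture settings. The cultures gave 88% (HM-1) and 90% (ID8) at 2-fold. A member not called in tumors is thus not shown to be unchanged. Alternatives were DESeq2 1.42.0 (the tool of the study's design text), limma 3.58.1 voom with sample weights, other scalings, no filter, 1 fit over all libraries, a replicate block and leaving out each library. Ratios to cultures used a floor of 3 counts over the group and exact binomial 95% intervals, which cover counting error only. The 31 members, their role groups and the pathway and marker lists were chosen with earlier results of these data known. By rule all members and any gene of the pathway lists may be named, and from a marker list the most abundant gene and those called in tumors. Epcam, Elane and Camp, at 0, the monocyte markers named, Ly6g and genes that share exons or sequence with a member were named after their values were seen. Promoter sequences are from RefSeq (GRCm38.p6), where 8 members (Adgre1, Itgb2, Csf1r, Tyrobp, Cd14, Sirpa, C1qa and Spi1) were not matched. One gene of the growth and transcription factor list with that list's median, and 1 monocyte marker, are not reported here.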

Additional observations from a re-analysis of the deposited data

Results flagged for a closer look

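Spi1 was set apart because the edgeR test of its difference between labels in tumors against that in HM-1 cultures passed the threshold, with a log2 interaction of -2.89 (adjusted p = 0.04). It rests on 3 and 10 culture counts, Spi1 passed the filter only through the tumors, and the call was lost in 7 of the 12 fits without a single library, so a difference is not shown. Itgb2 was set apart because every library moved in opposite directions in the cultures of the 2 lines: its log2 difference under the Cd276KO label was 1.49 in HM-1 cultures and -1.10 in ID8 cultures, and the difference between the lines was not tested. Groups of 3 were not searched for single libraries far from the rest.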

How the results depend on the processing

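Of 1556 recomputed values of single genes, 1428 kept their direction and side of the threshold, 41 came to pass it, 58 no longer passed it and 29 changed sign, none of them called before. Against 7 members called lower in tumors, DESeq2 called 11, voom with sample weights 14 (11.3% of all genes) and the replicate block 0, where no gene of all was called. Leaving out single libraries gave 0 to 9. In HM-1 cultures the 1 call higher became 3 with voom (1 to 3 without single libraries), and the 1 call lower became 3 with voom, 2 without the filter and 0 with the replicate block (0 to 2). Voom there called 3667 genes of all higher and 3892 lower, in place of 1450 and 2002. Of all genes, 7.86% were called lower there without the filter and 11.7% with the replicate block. In ID8 cultures voom called 1 higher (0 to 1), and the 3 lower became 1 in the fit over all 18 libraries (2 to 3). Of all genes, voom called 4112 higher in ID8 cultures, in place of 3798, and the fit over all 18 libraries called 14.9% lower. For the interaction, voom called 1 higher, and the 1 lower became 2 with DESeq2, 3 with voom, 2 without the filter and 0 with the replicate block (0 to 3), where voom called 1668 genes of all higher and 1394 lower in place of 268 and 175. The share of all genes called lower in the interaction was 2.38% with DESeq2, 0.484% without the filter and 0.717% with the replicate block. No pairing of samples by replicate number was seen in tumors or HM-1 cultures, though groups of 3 libraries cannot exclude one. Correlations of same-numbered deviations were -0.639, 0.0915 and -0.0476 in tumors and 0.000233, 0.0117 and -0.00715 in HM-1 cultures. In ID8 cultures they were 0.321, 0.0468 and 0.236, and each library was closest to its own number. Whether the numbers pair the ID8 libraries is thus not settled. With the replicate block 8329 genes were called in ID8 cultures, in place of 7849.

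Signs changed with other settings for Adgre1 (0.11, replicate block), Itgb2 (-0.23, voom; -0.024, total counts) and Apoe (0.020, block) in tumors, for Csf2ra (-0.015, voom; -0.023, total counts) and Apoe (-0.075, voom) in ID8 cultures, and for Cd14 between control tumors and cultures (-0.043, no filter). Leaving out single libraries, log2 differences crossed 0 in tumors for Adgre1 (-0.57 to 0.42), Itgb2 (-0.36 to 0.45), Cx3cr1 (-0.10 to 0.97), Mertk (-0.018 to 0.24), Apoe (-0.46 to 0.17) and F13a1 (-0.55 to 0.065). They also did so for F13a1 in HM-1 cultures (-0.27 to 0.12), Csf2ra in ID8 cultures (-0.094 to 0.14), Cd14 between control tumors and cultures (-0.13 to 0.25), and F13a1 (-0.53 to 0.10) and Emilin2 (-0.61 to 0.048) in the interaction. The cause was not tested. With total counts alone, the median over all genes was 0.20 in place of 0.05 for control tumors against cultures and 0.21 in place of 0.08 for the Cd276KO label. At the depth of the cultures, 7 members could be tested in HM-1 and 8 in ID8.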

Other observations

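Among the other macrophage pathway genes, several with counts in HM-1 cultures had differences there and in tumors that were themselves different (edgeR interaction over 12 libraries, adjusted p). In that test 1.12% of all genes were called lower and 1.72% higher. Not all pathway genes called are named here, and fits without single libraries were not kept for them. Arg1 stood at 0.394 to 0.567 CPM in control cultures and 1.08 to 1.43 CPM in Cd276KO cultures and rose by 1.45, while in tumors it fell by 2.70 (interaction -4.14, SE 0.61, adjusted p = 0.00449). The control culture values of Arg1 alone would not have passed the filter on low counts. Fabp5, a fatty acid binding protein, rose by 0.87 in cultures, from 21.9 to 26.9 CPM to 40.9 to 43.5 CPM, and fell by 1.40 in tumors (interaction -2.26, SE 0.17, adjusted p = 7.1e-05). Klf4 rose by 0.73 in cultures and fell by 0.84 in tumors (interaction -1.58, SE 0.17, adjusted p = 0.00068). Irf8, a factor of monocyte development, fell by 3.76 in cultures, where it stood at 4.73 to 5.96 CPM in controls and 0.256 to 0.516 CPM under the label, and in tumors its log2 difference was -0.26 (interaction 3.498, SE 0.31, adjusted p = 0.000169). The Cd276KO culture values of Irf8 alone would not have passed that filter. Spp1, the secreted protein osteopontin, was abundant in the cultures themselves, at 8568 to 10019 CPM in controls and 4599 to 5099.5 CPM under the label.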
